A study of Mus musculus with 2 samples.

Results

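The 10 genes described here encode parts of the NF-kB and cytokine feedback circuit: Socs3, Nfkbia, Nfkbiz, Tnfaip3, Nfkb1, Nfkb2, Il33, Csf1, Tnfrsf1a and Il1r1. They were taken by gene symbol from 32285 annotated genes, and all 10 were found. Their levels were measured by droplet single-cell RNA sequencing of mouse kidney cells, in 1 library from cisplatin-treated mice and 1 library from saline-treated mice. The mice were male, of strain C57BL6/J and 10 to 12 weeks old, and kidneys were taken at 72 h; cisplatin, a platinum chemotherapy drug that injures the kidney tubule, was given at 20 mg/kg. Each condition pooled 10 kidneys, with 5 mice named in the design, into a single library, so no animal can be told from another and there was no replicate. Before loading, both pools were enriched with magnetic beads for CD31 (the product of Pecam1, carried by all endothelium) and then for podoplanin, a pair of proteins found together on lymphatic endothelium.

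NF-kB is a family of dimeric transcription factors that IkB proteins hold in the cytoplasm. Ligands such as TNF and IL-1 bind receptors that start the destruction of IkB, and the freed dimers then switch on genes for adhesion molecules, cytokines and, among others, their own inhibitors. IL-6 family cytokines use a parallel route through JAK kinases and STAT3, and Socs3, which STAT3 induces, shuts that route down again. In vessels these circuits are known for controlling leukocyte recruitment during injury.

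The promoters of 4 of the 10 genes are shown as examples of windows that hold a STAT-type or an NF-kB-type spelling. Windows of Tnfaip3 and Tnfrsf1a that hold such a spelling are not shown. The windows run from 250 bases before to 50 bases after a RefSeq transcript start, 5′ to 3′ on the strand of the gene, on GRCm38.p6. Capitals mark TTCNNNGAA, a STAT-type spelling, or GGG, any 2 bases and TTTCC, an NF-kB-type spelling, both read on both strands. Socs3 lies at chr11:117969317-117969616 on the minus strand and Nfkbia at chr12:55492598-55492897 on the minus strand. The Nfkb2 window, 1 of several starts, lies at chr19:46304487-46304786 on the plus strand, and that of Csf1 at chr3:107760420-107760719 on the minus strand.
Socs3: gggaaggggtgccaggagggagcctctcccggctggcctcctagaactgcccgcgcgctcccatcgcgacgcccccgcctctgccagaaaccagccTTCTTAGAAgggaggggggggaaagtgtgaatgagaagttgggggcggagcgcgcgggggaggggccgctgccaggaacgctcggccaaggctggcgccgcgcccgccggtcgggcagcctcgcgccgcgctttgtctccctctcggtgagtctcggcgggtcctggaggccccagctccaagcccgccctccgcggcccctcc
Nfkbia: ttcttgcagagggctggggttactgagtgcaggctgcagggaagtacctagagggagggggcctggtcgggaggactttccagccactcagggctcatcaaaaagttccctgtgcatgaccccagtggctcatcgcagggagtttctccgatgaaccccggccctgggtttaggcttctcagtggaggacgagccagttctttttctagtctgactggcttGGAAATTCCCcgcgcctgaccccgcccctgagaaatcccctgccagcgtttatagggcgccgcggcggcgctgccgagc
Nfkb2: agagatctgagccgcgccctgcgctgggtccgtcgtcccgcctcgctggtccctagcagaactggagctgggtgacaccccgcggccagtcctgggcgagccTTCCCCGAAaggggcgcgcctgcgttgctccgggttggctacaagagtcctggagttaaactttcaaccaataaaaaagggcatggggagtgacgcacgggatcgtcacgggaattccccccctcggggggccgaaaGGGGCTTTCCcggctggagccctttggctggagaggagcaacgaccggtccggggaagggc
Csf1: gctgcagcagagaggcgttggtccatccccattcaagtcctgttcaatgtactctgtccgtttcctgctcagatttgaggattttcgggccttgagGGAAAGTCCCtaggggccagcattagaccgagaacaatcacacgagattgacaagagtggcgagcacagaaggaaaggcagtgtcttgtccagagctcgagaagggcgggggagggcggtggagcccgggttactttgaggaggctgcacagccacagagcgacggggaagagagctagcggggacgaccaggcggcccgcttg

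The STAT-type spelling was in 8.30% of all 32851 promoter windows and, among the 10 genes, in windows of Socs3, Nfkb2 and Tnfrsf1a. The NF-kB-type spelling was in 1.63% of all windows and in windows of Nfkbia, Nfkb2, Csf1 and Tnfaip3. The RefSeq table held windows for 8 of the 10 genes, 13 windows in all. Both spellings were chosen from 6 searched after the matches had been seen, and a match describes letters, not a bound site.

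The cisplatin library held 19994105 unique molecular identifiers (UMIs, each standing for 1 captured transcript) and the saline library 5879496. Barcodes with 500 UMIs or more, of which at most 20% mitochondrial, numbered 1729 and 627, with none shared between the libraries and medians of 746 and 896 UMIs. Cells were assigned by marker gates: at least 2 different markers of a cell type, and more than of any other type. The endothelial gate took 164 cisplatin and 437 saline barcodes, the proximal tubule gate 1243 and 148, the leukocyte gate 74 and 4, and the collecting duct gate 3 and 1. No barcode of either library passed the lymphatic gate, which allows a share of barcodes passing it of up to 0.174% in the cisplatin library and 0.478% in the saline library, taken as 3 barcodes of the total. The labels call the cells lymphatic endothelial. In the endothelial gate the 6 lymphatic markers summed to 14 and 9 UMIs, with Mmrn1, Reln and Ccl21a at 0 in both libraries, so these barcodes are called endothelial here and split into capillary, glomerular and arterial gates by blood vessel markers.

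The 2 endothelial gates drew on different vessels. Glomerular barcodes gave 35.7% of endothelial UMIs in the cisplatin library and 4.34% in the saline library, arterial barcodes 13.4% and 55.5%, and capillary barcodes 42.6% and 26.1%. Median depth was 2016.5 UMIs in cisplatin and 1073 UMIs in saline endothelium, with median mitochondrial shares of 7.06% and 1.52%. Markers of other cells were also unequal in the endothelial gate: collecting duct markers had 1625 UMIs in cisplatin against 6 in saline, loop and distal tubule markers 738 against 82, podocyte markers 672 against 308, and pericyte and smooth muscle markers 147 against 22. A single cisplatin barcode of 116215 UMIs, in the glomerular gate, supplied 13.9% of the cisplatin endothelial UMIs and held 661 collecting duct and 1153 endothelial marker UMIs. The part of this mixing in the ratios given here was measured only by leaving barcodes out. The vessel gates also differed in vessel markers between the libraries. In capillary barcodes glomerular markers made up 0.168% of UMIs in cisplatin and 0.0570% in saline. In glomerular barcodes they made up 0.894% and 0.469%, and arterial markers 0.0781% and 0.201%. The part of these differences in the ratios within vessel types was not tested. No doublet caller was run.

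**Figure D1:**
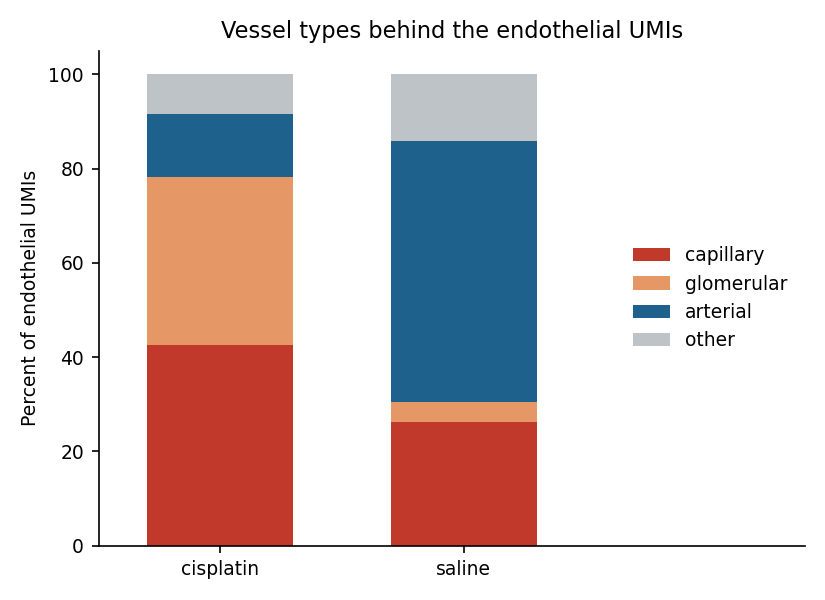
Share of endothelial UMIs (percent, vertical axis) that came from capillary, glomerular, arterial and other barcodes, in the cisplatin and the saline library. Arterial barcodes gave 13.4% of endothelial UMIs in cisplatin and 55.5% in saline, and glomerular barcodes 35.7% and 4.34%.

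In endothelium as a whole, Socs3, Il33, Nfkb2 and Csf1 were at least 2-fold higher in the cisplatin library, and none of the 10 genes was at least 2-fold lower. A gene counted as measured with at least 20 UMIs over both libraries in a gate, and 8 of the 10 genes were measured here. Of all 8639 genes measured in the gate, 10.9% were at least 2-fold higher and 5.48% at least 2-fold lower. The median log2 ratio was 0.76 over the 8 genes and 0.05 over all genes. Levels are CPM, a gene's UMIs divided by the total of the gate and scaled to 1000000, and intervals in parentheses are exact 95% intervals that cover counting error only. They say nothing of the spread between animals, and UMIs are counted at the 3′ end of each transcript.

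**Figure D2:**
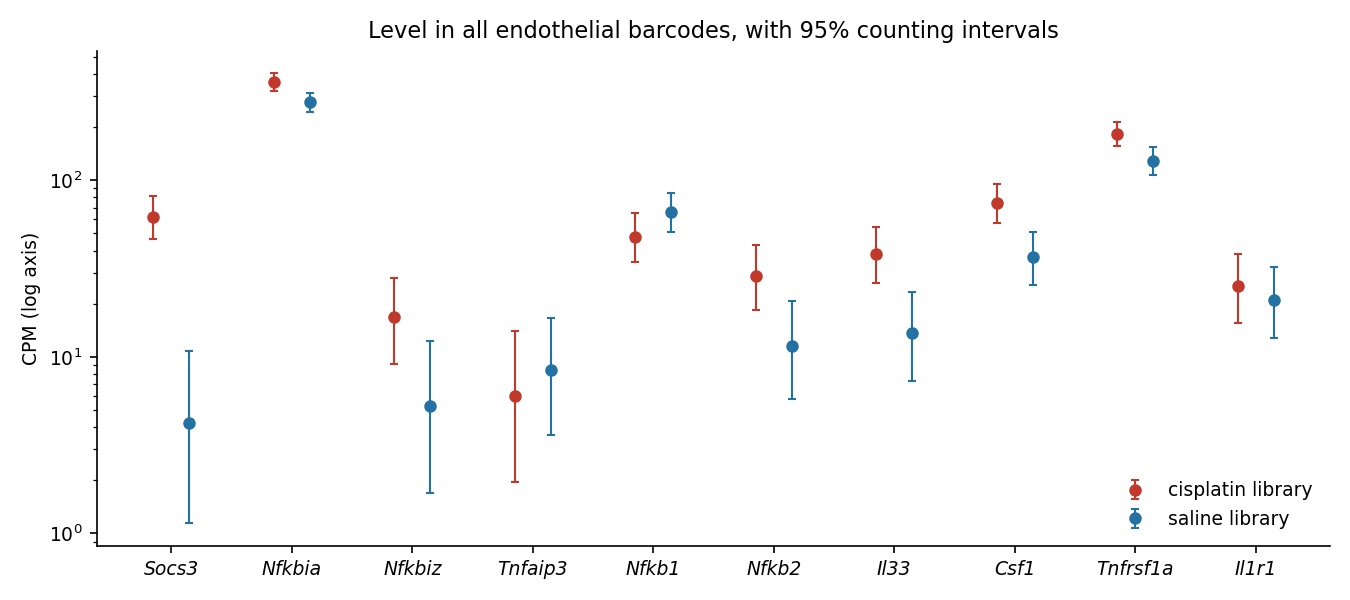
Level of the 10 genes in all endothelial barcodes, in CPM on a log axis, for the cisplatin library (red, 164 barcodes) and the saline library (blue, 437 barcodes); bars are 95% counting intervals. Socs3 stood at 62.3 in cisplatin and 4.20 in saline, the widest gap of the 10, while the intervals of Nfkbiz, Tnfaip3, Nfkb1, Nfkb2 and Il1r1 overlapped.

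Socs3, the STAT3-induced inhibitor of cytokine receptor signalling (chromosome 11, 117966079 to 117970047, GRCm38), had 52 UMIs in cisplatin endothelium and 4 UMIs in saline endothelium. These made 62.3 (46.5 to 81.7) and 4.20 (1.14 to 10.7) CPM, a ratio of 14.8 (5.46 to 56.5). It was seen in 22 of 164 cisplatin barcodes, 13.4% (8.60 to 19.6), and in 4 of 437 saline barcodes, 0.915% (0.250 to 2.33). In the cisplatin library 11 barcodes carried at least 2 UMIs and the richest carried 9, whereas each saline barcode carried 1.

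Depth differed between the barcodes that showed Socs3 and those that did not. The positive cisplatin barcodes had a median of 7159 UMIs and the negative ones 1288.5. With each barcode thinned to 500 UMIs, the expected share was 2.69% in cisplatin and 0.200% in saline endothelium. Proximal tubule barcodes, at median depths of 732 and 685 UMIs, showed Socs3 in 1.37% of cisplatin and 0% of saline barcodes, and after thinning in 0.736% and 0%. RNA set free from broken cells, at the share estimated from leukocyte markers, would supply 13.4 of the 21 cisplatin Socs3 UMIs in these tubule barcodes.

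Within capillary endothelium, a part of the endothelial gate, Socs3 was higher in cisplatin, with 26 UMIs in 82 barcodes against 2 UMIs in 229 saline barcodes. The levels were 73.2 and 8.03 CPM, a ratio of 9.11 (2.28 to 79.2). The 26 UMIs lay in 12 barcodes, 8 of them in 1 barcode. Without barcodes above 20000 UMIs, 16 and 2 capillary UMIs remained. Without barcodes holding a podocyte or urothelial UMI, 8 and 2 remained. Both are under the minimum for a ratio. In glomerular endothelium Socs3 had 25 UMIs in 32 cisplatin barcodes, 83.8 CPM, and 0 UMIs in 26 saline barcodes. Against a floor of 3 saline UMIs (72.6 CPM) that is at least 1.16-fold higher, so the shallow saline glomerular gate sets little limit. Of the 25 glomerular UMIs, 9 lay in 1 barcode. Arterial endothelium had 0 Socs3 UMIs in 13 cisplatin barcodes and 2 UMIs in 122 saline barcodes, and 13 barcodes were too few for a ratio.

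The Socs3 ratio was recomputed with doubtful barcodes left out. Without the 8 cisplatin barcodes and 1 saline barcode above 20000 UMIs, 31 and 4 UMIs remained and the ratio in endothelium was 14.1 (4.97 to 54.8). Without every barcode holding a podocyte or urothelial UMI, 13 and 2 UMIs remained in 99 and 287 barcodes, and the ratio was 10.7 (2.42 to 97.4). With the vessel types weighted alike in both libraries it was 10.7. That value has no interval and draws on 13 cisplatin arterial and 26 saline glomerular barcodes, both with 0 Socs3 UMIs. Free RNA, at the share estimated from tubule markers, would supply 1.11 of the 52 cisplatin UMIs and 0.0600 of the 4 saline UMIs.

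The inhibitors of NF-kB itself come next. Nfkbia, which encodes IkBα, an inhibitor that NF-kB itself induces (chromosome 12, 55489410 to 55492647), had 301 UMIs in cisplatin and 264 UMIs in saline endothelium. The levels were 361 (321 to 404) and 277 (245 to 313) CPM, a ratio of 1.30 (1.10 to 1.54). Within vessel types the ratio was lower than that.

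In capillary barcodes Nfkbia had 124 UMIs in cisplatin and 91 UMIs in saline, or 349 and 365 CPM, a ratio of 0.955 (0.723 to 1.27). In glomerular barcodes it had 133 and 18 UMIs, or 446 and 435 CPM, a ratio of 1.02 (0.624 to 1.78). A single glomerular barcode carried 63 of these cisplatin UMIs. Without the richest barcode of each library the glomerular ratio was 0.693 and that over endothelium 1.06, and the glomerular mean over barcodes gave 0.606. Nfkbia was seen in 48.2% of cisplatin and 35.5% of saline endothelial barcodes, but after thinning to 500 UMIs in 13.8% and 14.3%, so the difference in share was not seen at equal depth.

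Tnfaip3 encodes A20, a ubiquitin editor that stops signalling from TNF and IL-1 receptors (chromosome 10, 19000910 to 19015657). It had 5 UMIs in cisplatin and 8 UMIs in saline endothelium, under the minimum for a ratio. Nfkbiz encodes IkBζ, a nuclear co-regulator that helps NF-kB switch on secondary targets (chromosome 16, 55811375 to 55838899). It had 14 UMIs in cisplatin and 5 UMIs in saline endothelium, also under the minimum. Those are 16.8 (9.17 to 28.1) and 5.25 (1.70 to 12.2) CPM, and the intervals overlapped.

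The 2 precursor subunits had ratios on either side of 1. Nfkb2 encodes p100, processed to p52 in the non-canonical pathway (chromosome 19, 46304320 to 46312385). It had 24 UMIs in cisplatin and 11 UMIs in saline endothelium, 28.8 and 11.5 CPM, a ratio of 2.49 (1.17 to 5.63). In capillary barcodes it had 12 and 2 UMIs, or 33.8 and 8.03 CPM, and in glomerular barcodes 9 and 2 UMIs, or 30.2 and 48.4 CPM. In arterial barcodes it had 0 UMIs in cisplatin and 6 UMIs in saline, and all 3 vessel types were under the minimum for a ratio. With vessel types weighted alike the ratio over endothelium was 1.31, under 2-fold. That value has no interval and rests in part on the 2 saline glomerular and 0 cisplatin arterial UMIs.

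Nfkb1, the source of p105 and p50 in the canonical dimer (chromosome 3, 135584655 to 135691547), had 40 UMIs in cisplatin and 63 UMIs in saline endothelium. The levels were 47.9 and 66.1 CPM, a ratio of 0.725 (0.475 to 1.09). Within capillary barcodes its 16 and 18 UMIs gave a ratio of 0.623 (0.297 to 1.29), and within glomerular barcodes its 14 and 6 UMIs gave 0.323 (0.117 to 1.03). All 3 intervals include 1, so these counts cannot separate a lower level from no difference.

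Among the cytokines, Il33 and Csf1 were at least 2-fold higher over all endothelium and under 2-fold in capillary barcodes. Il33, a nuclear alarmin released from injured cells (chromosome 19, 29925114 to 29960718), had 32 UMIs in cisplatin and 13 UMIs in saline endothelium, 38.3 and 13.6 CPM. The ratio was 2.81 (1.43 to 5.83). Of these UMIs 24 in cisplatin and 12 in saline lay in capillary barcodes, where the levels were 67.6 and 48.2 CPM and the ratio 1.40 (0.674 to 3.08). That capillary ratio passed 2-fold under 3 of the settings run: 2.03 without barcodes holding a podocyte or urothelial UMI, 2.13 as a mean over barcodes and 2.19 without barcodes above 20000 UMIs. Arterial barcodes, which gave most saline UMIs, held 2 Il33 UMIs in cisplatin and 1 UMI in saline, and glomerular barcodes 6 and 0 UMIs, too few for a ratio.

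Csf1, the macrophage growth factor M-CSF (chromosome 3, 107741048 to 107760469), had 62 UMIs in cisplatin and 35 UMIs in saline endothelium, 74.3 and 36.7 CPM. The ratio was 2.02 (1.32 to 3.15), just past the 2-fold mark. In capillary barcodes it was 64.8 and 56.2 CPM, a ratio of 1.15 (0.568 to 2.42), and in glomerular barcodes 117 and 169 CPM, a ratio of 0.693 (0.303 to 1.85). Glomerular barcodes held 56.5% of the cisplatin Csf1 UMIs and 20% of the saline ones. With vessel types weighted alike the ratio turned to 0.900. That value has no interval and used saline glomerular and cisplatin arterial levels from 7 and 3 UMIs. Without barcodes holding a podocyte or urothelial UMI the ratio was 1.23 (0.629 to 2.37).

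Of the receptors, Tnfrsf1a, the main TNF receptor (chromosome 6, 125349362 to 125362484), had 153 UMIs in cisplatin and 123 UMIs in saline endothelium. The levels were 183 and 129 CPM, a ratio of 1.42 (1.11 to 1.82). With vessel types weighted alike it was 0.952, a value without an interval that used 8 cisplatin arterial UMIs, and as a mean over barcodes 1.09. In capillary barcodes it had 77 and 27 UMIs, 217 (171 to 271) and 108 (71.5 to 158) CPM, a ratio of 2.00 (1.27 to 3.22) that fell just short of the 2-fold mark before rounding. In glomerular barcodes it had 62 and 13 UMIs, 208 and 314 CPM, a ratio of 0.661 (0.360 to 1.31). With podocyte or urothelial barcodes left out, the capillary ratio rested on 19 UMIs in each library and was 1.66 (0.832 to 3.31).

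Il1r1, the IL-1 receptor (chromosome 1, 40225080 to 40317257), had 21 UMIs in cisplatin and 20 UMIs in saline endothelium, a ratio of 1.20 (0.618 to 2.33). Its arterial level was 62.7 (25.2 to 129) CPM in 13 cisplatin barcodes and 24.6 (13.1 to 42.1) in 122 saline barcodes, and these intervals overlapped.

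In capillary endothelium 6 of the 10 genes were measured. Socs3 alone was at least 2-fold higher and none was lower, where 11% of 5015 measured genes were higher and 8.28% lower. The median log2 ratio was 0.35 over the 6 genes and -0.03 over all genes. The count depended on the setting, since Tnfrsf1a passed 2-fold under 5 of the settings run (2.01 to 2.11) and Il33 under 3. In glomerular endothelium 5 genes were measured. None was counted as higher, since the Socs3 bound lay under 2, and Nfkb1 was lower, where 16.2% of 3337 measured genes were higher and 9.62% lower. The glomerular median log2 ratio was -0.53 over the 5 genes and 0.02 over all genes, on the other side of 0 from the capillary median. These medians cover different genes, and the glomerular one takes Socs3 at its bound. The glomerular intervals of Nfkbia, Nfkb1, Csf1 and Tnfrsf1a all include 1, so an opposite direction is not shown.

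**Figure D3:**
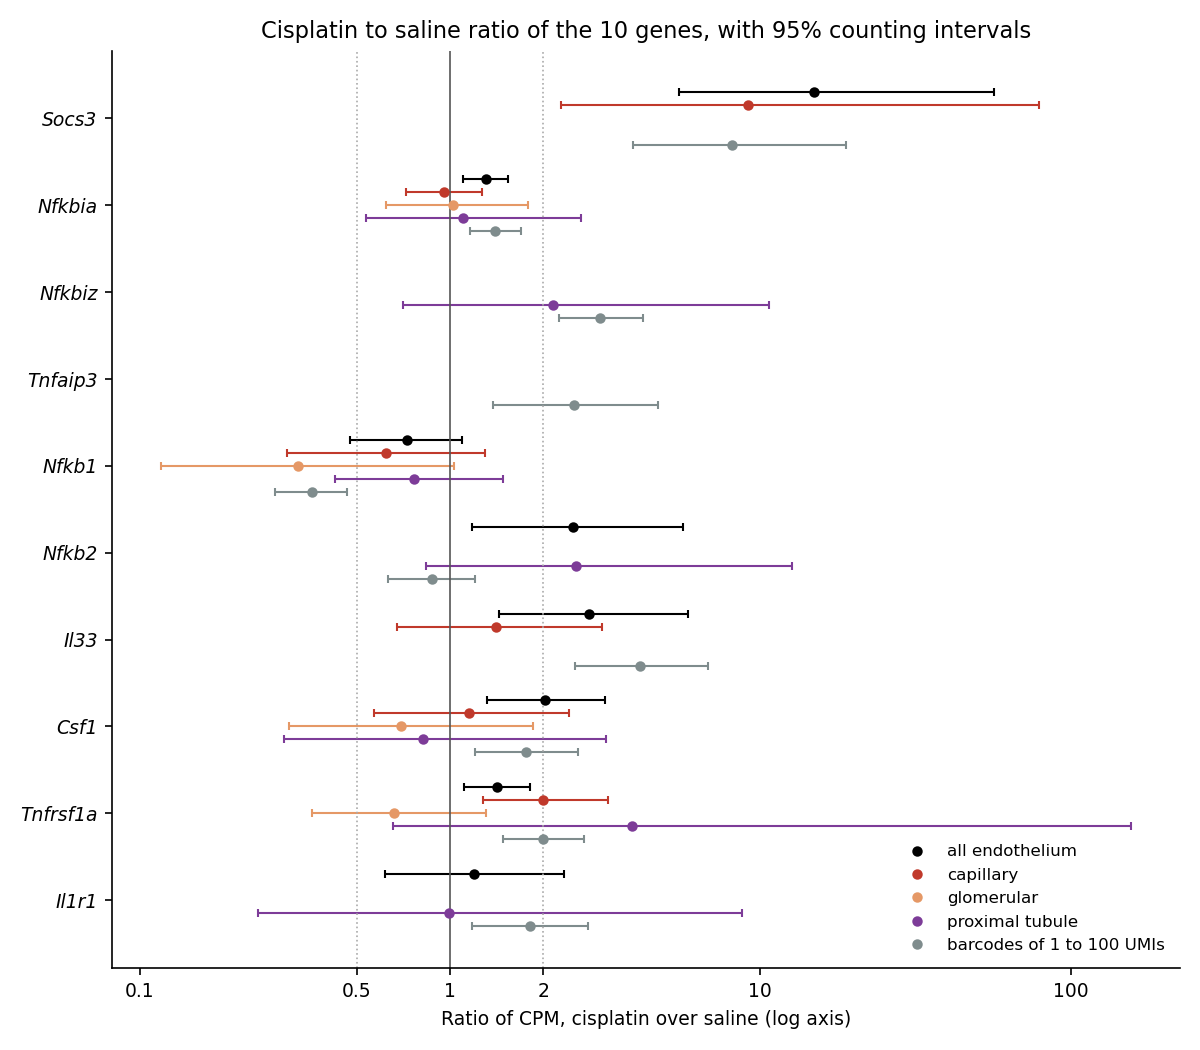
Ratio of CPM, cisplatin over saline, on a log axis for each gene in all endothelium, capillary, glomerular and proximal tubule barcodes and in barcodes of 1 to 100 UMIs; bars are 95% counting intervals and dotted lines mark 2-fold either way. Only measured genes with UMIs in both libraries are drawn. Socs3 lay at 14.8 in all endothelium and 9.11 in capillary barcodes, and Csf1 at 2.02, 1.15 and 0.693 in all, capillary and glomerular barcodes.

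Proximal tubule barcodes gave wide intervals because the saline gate held 115862 UMIs against 1167820 in cisplatin. Nfkb2 had 77 UMIs in cisplatin and 3 UMIs in saline, a ratio of 2.55 (0.839 to 12.6). Nfkbiz had 65 and 3 UMIs, a ratio of 2.15 (0.704 to 10.7), and Tnfrsf1a 39 UMIs and 1 UMI, a ratio of 3.87 (0.655 to 157). These 3 of 8 measured genes were past 2-fold, each with an interval that includes 1, and none was lower, where 13.7% of 8542 measured genes were higher and 7.23% lower. The median log2 ratio was 0.07 over the 8 genes and 0 over all genes.

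Socs3 had 21 UMIs in cisplatin and 0 UMIs in saline proximal tubule. At 18.0 CPM it lay under the saline floor of 25.9 CPM, so no fold is given. The share of free RNA in this gate, estimated from leukocyte markers, was 58.5% in cisplatin and 91.6% in saline. These estimates have no interval and rest on 250 and 23 leukocyte marker UMIs, with 6 of the 10 markers detected in saline. With free RNA subtracted, 5 genes still had a ratio, of which none was past 2-fold higher and Nfkb1, Csf1 and Il1r1 were past 2-fold lower. Nfkb2 and Tnfrsf1a had none, since their saline free RNA (3.41 and 2.43 UMIs) was more than their saline counts of 3 UMIs and 1 UMI.

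Leukocytes could be described in the cisplatin library only. Their 74 barcodes held 76 Nfkbia UMIs, 307 (242 to 385) CPM, of which 38 lay in 1 barcode. They held 29 Nfkb1, 15 Tnfrsf1a, 12 Nfkbiz, 9 Tnfaip3, 8 Socs3 and 5 Nfkb2 UMIs. Il33, Csf1 and Il1r1 were seen in 0 of 74 barcodes, which allows a share of barcodes with a UMI of up to 4.05% (3 barcodes of the total). At this depth that is no limit on the share of cells expressing them. Endothelial barcodes of the same library showed these genes in 9.15%, 14.6% and 9.76%, at a median depth of 2016.5 UMIs against 1306 UMIs in leukocytes.

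Ordered by level in the cisplatin library, Socs3 stood at 83.8 (54.2 to 124) CPM in glomerular, 73.2 (47.8 to 107) in capillary, 32.4 (14.0 to 63.7) in leukocyte, 18.0 (11.1 to 27.5) in proximal tubule and 0 (up to 33.0) in arterial barcodes. Neighbours in this order had overlapping intervals, while the capillary and glomerular intervals lay wholly above that of proximal tubule. Nfkbia stood at 446 (373 to 528) in glomerular, 349 (290 to 416) in capillary, 307 (242 to 385) in leukocyte, 287 (196 to 404) in arterial and 76.2 (61.2 to 93.8) in proximal tubule barcodes. Its proximal tubule interval lay below all the others. Free RNA, at the share estimated from leukocyte markers, would supply 13.4 of the 21 Socs3 and 66.3 of the 89 Nfkbia UMIs of that gate. Cisplatin barcodes of 1 to 100 UMIs stood at 19.6 CPM for Socs3 and 97.2 CPM for Nfkbia. These proximal tubule levels therefore cannot be read as those of tubule cells alone.

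**Figure D4:**
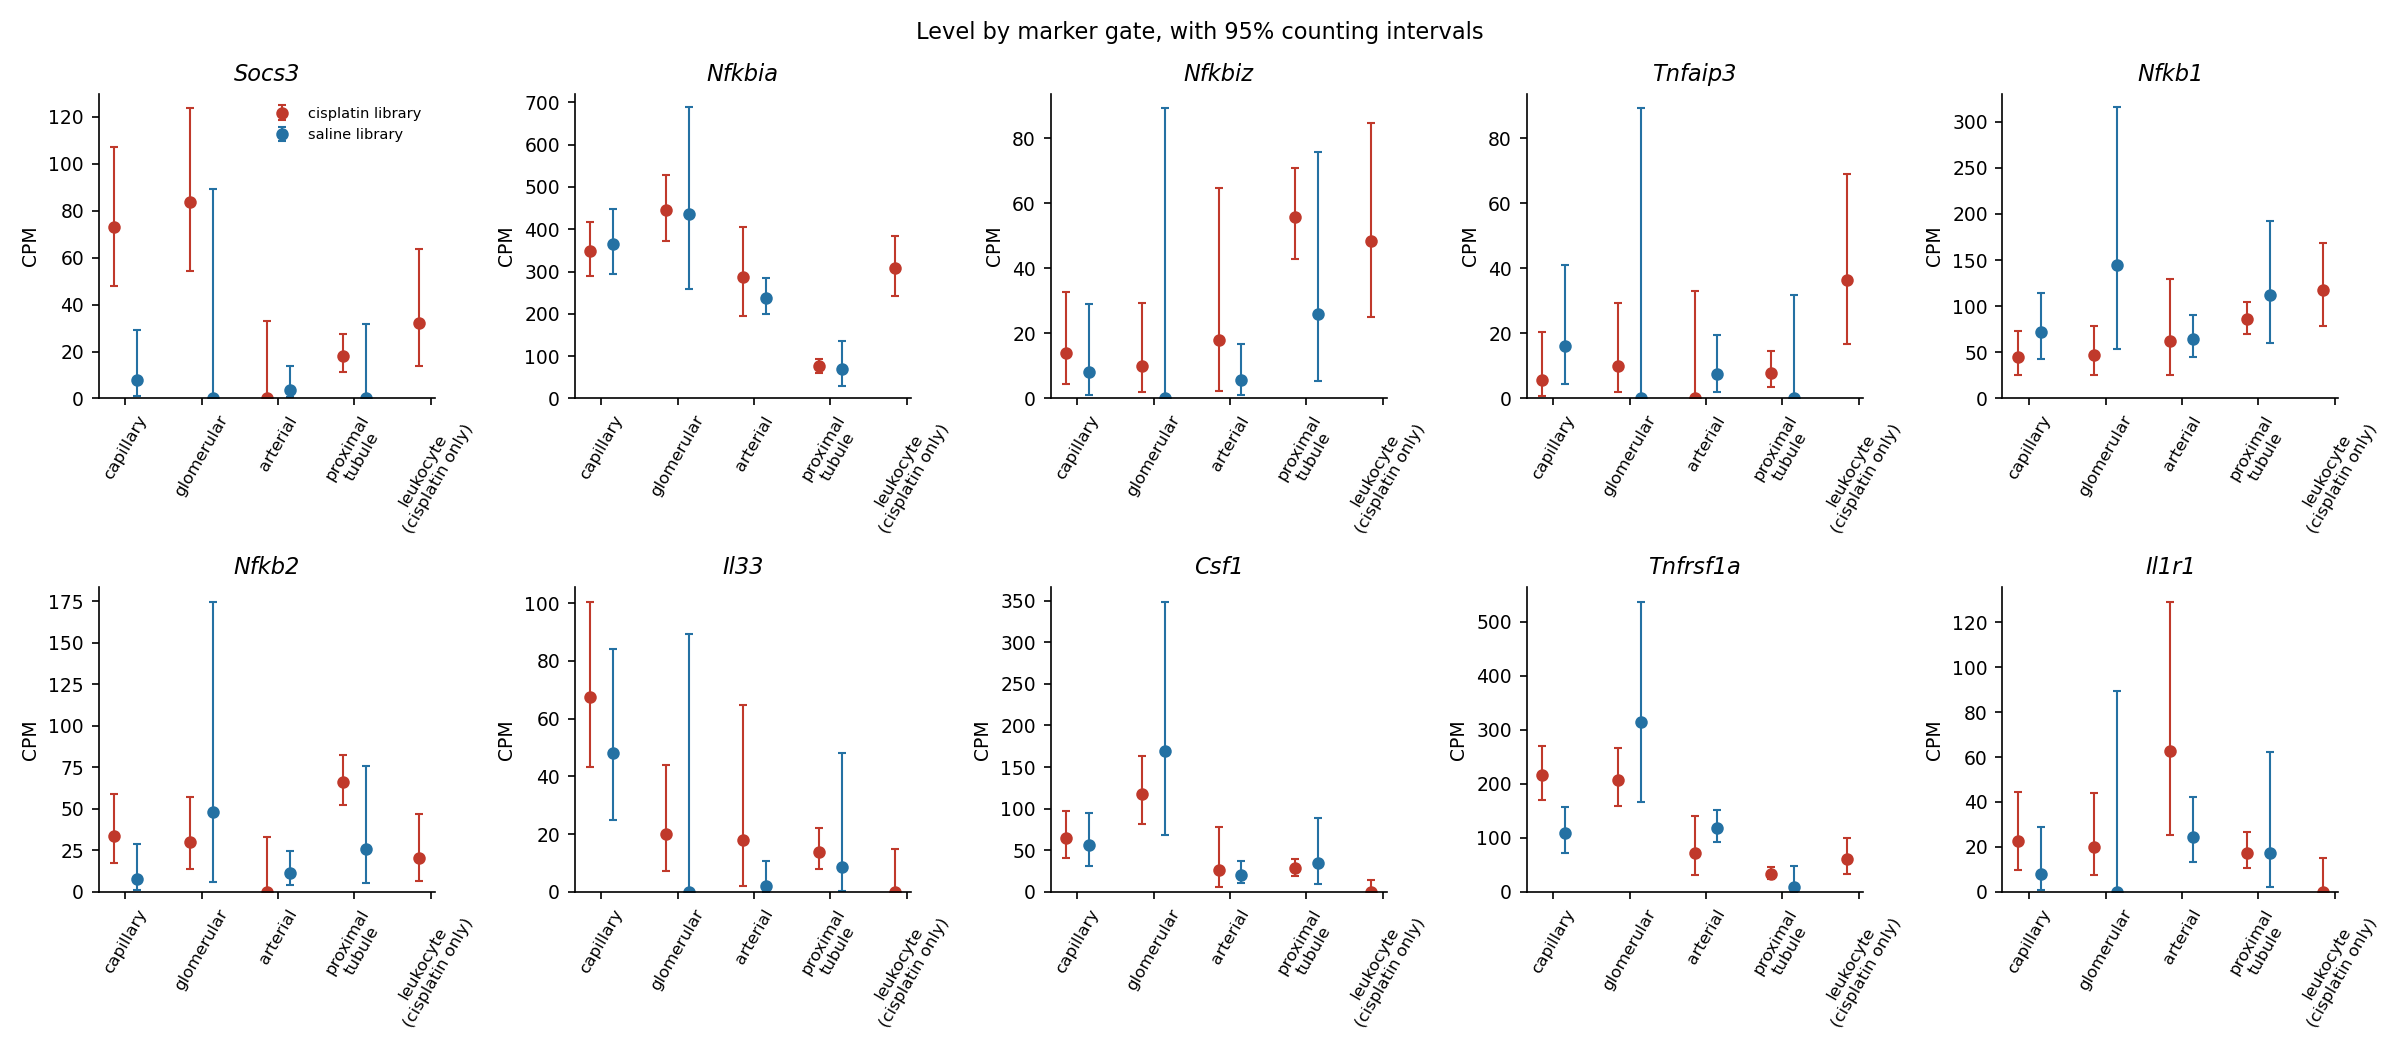
Level of each gene (CPM, 1 panel per gene) in capillary, glomerular and arterial endothelium and proximal tubule of both libraries, and in leukocytes of the cisplatin library; bars are 95% counting intervals. Socs3 stood at 73.2 in cisplatin and 8.03 in saline capillary barcodes, while Nfkbia stood at 349 and 365.

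Barcodes of 1 to 100 UMIs, which carry RNA set free from broken cells, gave a separate view with all 10 genes measured. Socs3 was higher there as well, with 42 UMIs in cisplatin and 9 UMIs in saline, 19.6 and 2.43 CPM, a ratio of 8.07 (3.87 to 18.9). Il33 was at 27.6 and 6.75 CPM, a ratio of 4.08 (2.52 to 6.80). Nfkbiz was at 56.1 and 18.4 CPM, a ratio of 3.05 (2.25 to 4.17), and Tnfaip3 at 13.5 and 5.40 CPM, a ratio of 2.51 (1.37 to 4.68).

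Nfkb1 was lower in free RNA, at 31.8 CPM in cisplatin and 88.6 CPM in saline, a ratio of 0.359 (0.272 to 0.467). Of all 12375 genes measured in these barcodes, 7.22% were at least 2-fold higher and 11.4% lower, against 4 and 1 of the 10 genes. Malat1, a nuclear RNA, made up 2.22% of these UMIs in cisplatin and 10.5% in saline. Its part in the Nfkb1 ratio was not tested. In barcodes of 101 to 499 UMIs, Socs3, Nfkbiz and Il33 were at least 2-fold higher and Nfkb1 lower, where 8.71% of 13796 measured genes were higher and 14.2% lower. Over all barcodes of the libraries, which contain those just described, the same 3 genes were higher and Nfkb1 lower. Of 14935 measured genes, 7.2% were higher and 10.5% lower. Barcodes of 101 to 499 UMIs held 13378319 of the 19994105 cisplatin UMIs, so this is no separate result.

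**Figure D5:**
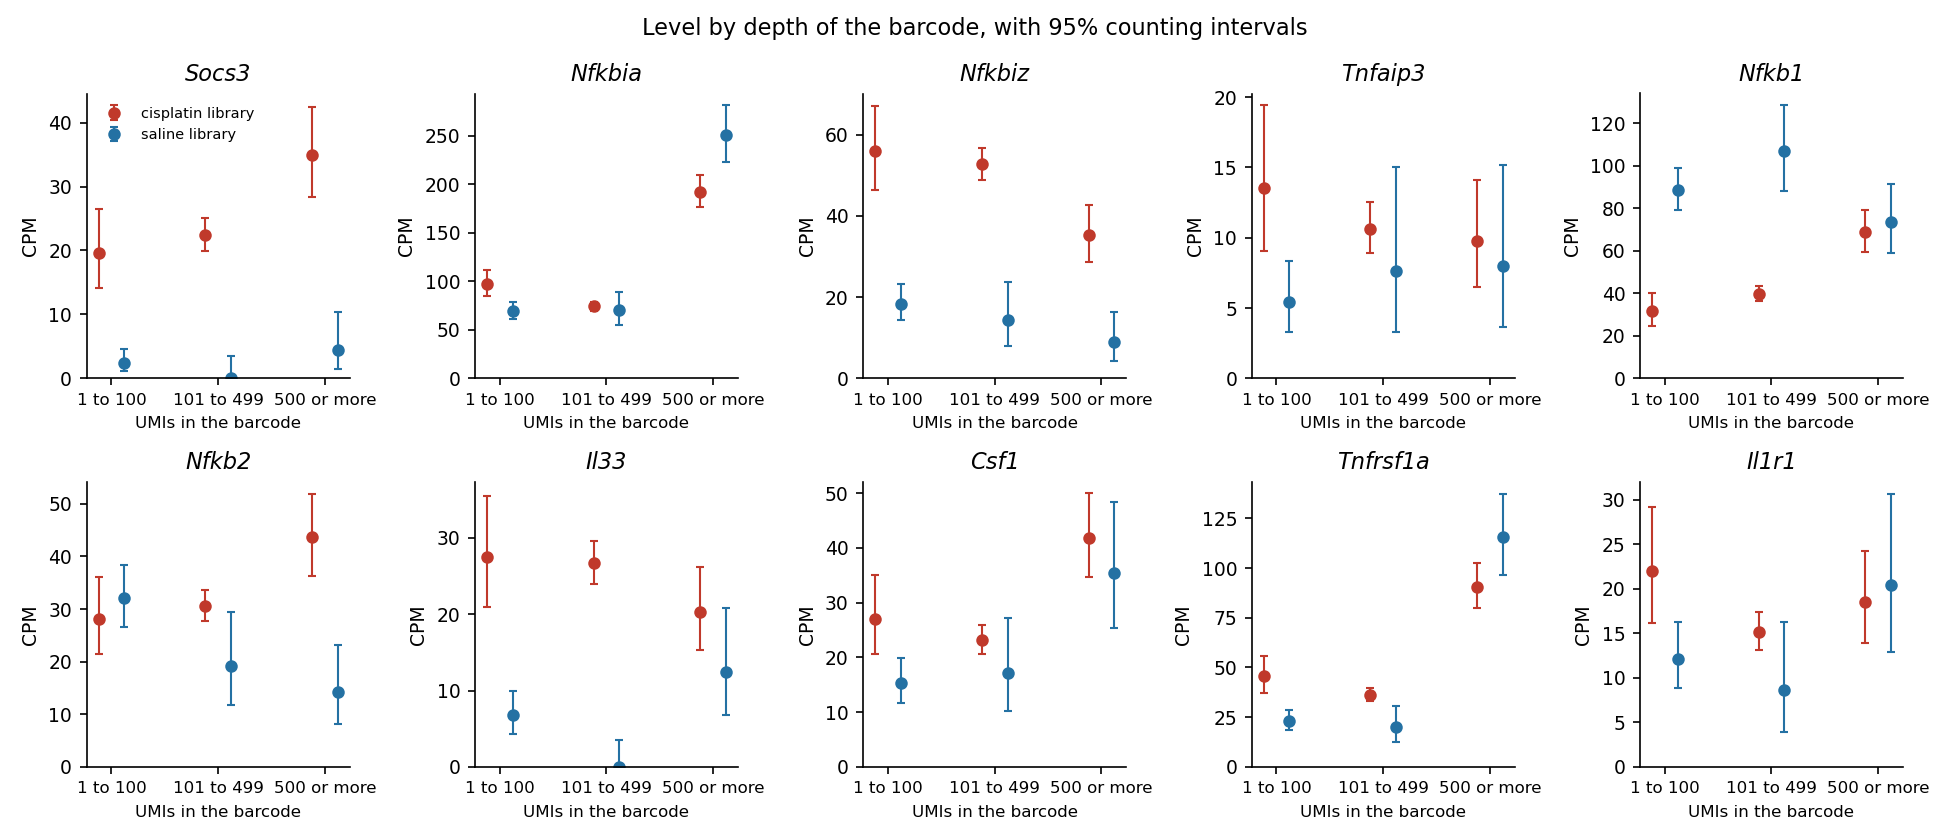
Level of each gene (CPM, 1 panel per gene) in barcodes of 1 to 100, 101 to 499 and at least 500 UMIs, the last with at most 20% mitochondrial UMIs; red is cisplatin, blue is saline and bars are 95% counting intervals. Socs3 was higher in cisplatin at each depth, and Nfkb1 was at 31.8 and 88.6 CPM in the shallowest class and at 68.7 and 73.7 in the deepest.

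The wider pathway was read from a list of 106 genes, of which 74 were measured in endothelium: 9 were at least 2-fold higher, 5 at least 2-fold lower and 60 neither, with a median log2 ratio of 0.02. These are 12.2% higher and 6.76% lower, near the 10.9% and 5.48% of all 8639 measured genes, and such shares are no result about the list. Among ligands only 2 of 16 were measured, and neither passed 2-fold. Among kinases and adaptors 1 of 16 measured genes, Map3k14, passed 2-fold. The higher genes were led by Cebpb, a transcription factor of the acute phase, with 63 UMIs in cisplatin and 11 UMIs in saline, a ratio of 6.54 (3.42 to 13.8). Il4ra, the receptor chain for IL-4 and IL-13, had 73 and 17 UMIs, a ratio of 4.90 (2.86 to 8.87).

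Icam1, the leukocyte adhesion molecule and a classical NF-kB target, had 71 UMIs in cisplatin and 21 UMIs in saline, a ratio of 3.86 (2.34 to 6.61). Tnfrsf12a, the TWEAK receptor, had a ratio of 4.57 (1.82 to 13.7). Map3k14, the kinase NIK, had 21 and 7 UMIs, a ratio of 3.42 (1.40 to 9.53). Relb, the partner of p52, had 25 and 10 UMIs, a ratio of 2.85 (1.32 to 6.66). The ratios of Bcl3 (2.45), Cish (2.43) and Il1rap (2.28) had intervals that include 1.

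Of the lower genes, Ptgs2, the inducible cyclooxygenase, had 1 UMI in cisplatin and 26 UMIs in saline, a ratio of 0.0439 (0.00107 to 0.267). Socs2 and Socs5, relatives of Socs3, were lower in cisplatin, with 25 and 73 UMIs for Socs2, a ratio of 0.391 (0.238 to 0.623). Socs5 had 42 and 105 UMIs, a ratio of 0.457 (0.311 to 0.659). Nfkbib, which encodes IkBβ, had a ratio of 0.399 (0.143 to 0.983), and Irak3, a brake on IL-1 signalling, one of 0.457 (0.174 to 1.08).

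Of these 14 genes past 2-fold in endothelium, 5 reached 20 UMIs within capillary endothelium, and all 5 were past 2-fold there in the same direction. Capillary barcodes are part of the endothelial gate in which these genes were picked, so this is no separate result. The other 9, Tnfrsf12a, Map3k14, Relb and Il1rap among them, have a ratio only over endothelium of unequal vessel mix. Capillary barcodes were not alike in vessel markers either. Capillary markers stood at 11518 CPM in cisplatin and 18429 CPM in saline, and glomerular markers at 1678 and 570 CPM. The part of this difference in the capillary ratios was not tested. Cebpb had 38 UMIs in cisplatin and 6 UMIs in saline capillary barcodes, a ratio of 4.44 (1.86 to 12.9). Il4ra had a ratio of 3.62 (1.49 to 10.6), Icam1 of 2.87 (1.42 to 6.43), Socs2 of 0.127 (0.0319 to 0.375) and Socs5 of 0.443 (0.196 to 0.961). Collecting duct markers had 892 UMIs in cisplatin against 3 UMIs in saline capillary barcodes, and their part in these ratios was not tested.

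Over the whole list in capillary barcodes, 9 of 44 measured genes were at least 2-fold higher and 4 lower, or 20.5% and 9.09%, where 11% and 8.28% of all 5015 measured genes were. By role, 5 of 9 targets were higher and 2 lower, against 1 higher and 2 lower of 14 other feedback genes, and neither of 2 receptors nor of 2 ligands passed 2-fold. The higher targets were Icam1, Cebpb, Vcam1, Sod2 and Cebpd, and the lower ones Gadd45b and Irf1; the last 3 higher and both lower genes were named after their values were seen. Sod2, the mitochondrial superoxide dismutase, had 48 UMIs in cisplatin and 10 UMIs in saline, a ratio of 3.37 (1.68 to 7.46). Irf1, an interferon-regulated factor, had 29 and 43 UMIs, a ratio of 0.473 (0.285 to 0.775).

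Over 8 profiles of gate and library with at least 20 barcodes each, the genes whose levels lay closest to those of Socs3 were Oat, Tubb4b, Ndufb10, Gata3 and Hist1h4d. Pearson's r of log2 levels (10 CPM added) was 0.93 to 0.97. For Nfkbia they were Ostf1, Gngt2, Pitpna, Eif4a3 and Arf1, with r of 0.98 to 0.99. Profiles share libraries and a single barcode can sway them, so these are descriptions of 8 points.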

How the data were processed

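The authors deposited raw UMI counts per gene and barcode, as whole numbers with no normalization and with barcodes unfiltered. Cell Ranger 6.0.1 and mm10 are named in the submitters' processing notes, while the matrices are marked version 4, per the file headers. The authors' own choice of cells was not used here.

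Counts were summed over the barcodes of each marker gate and divided by the UMIs of the gate. Intervals are exact Poisson for a level, exact conditional binomial for a ratio and Clopper-Pearson for a share, at 95%. Ratios needed 20 barcodes in each library and 20 UMIs of the gene over both, and a ratio of 2 either way was called higher or lower. Shares were also thinned to 500 UMIs. Where a library held 0 UMIs, the floor was 3 UMIs, and the limit beside a share of 0 is 3 barcodes of the total, not the Clopper-Pearson bound. There was 1 library per group, so there are no tests or p-values. The code was tested on simulated data. Alternatives were a minimum of 1000 UMIs, a mitochondrial limit of 10%, 3 markers, other denominators and scaling, free RNA subtracted, mixed barcodes left out and means over barcodes.

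The 10 genes, the pathway list, the marker lists and the rule for named genes (all members, and pathway genes past 2-fold in endothelium) were chosen with earlier results of these data known. Gene positions are from GENCODE M21 by Ensembl ID. Python 3.11.15, numpy 2.4.6, scipy 1.17.1, pandas 2.3.3 and matplotlib 3.10.9 were used.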

Additional observations from a re-analysis of the deposited data

Results flagged for a closer look

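Barcodes of 101 to 499 UMIs enter none of the cell gates, and they hold 13378319 UMIs in the cisplatin library and 1047366 in the saline library. Of the 10 genes, 3 were at least 2-fold higher there, where 8.71% of 13796 measured genes were, and 1, Nfkb1, was lower, where 14.2% were. Il33 had 357 UMIs in cisplatin and 0 UMIs in saline, at least 9.32-fold higher against a floor of 3 UMIs. Socs3 had 299 and 0 UMIs, at least 7.80-fold higher. Nfkbiz had 706 and 15 UMIs, 52.8 and 14.3 CPM, a ratio of 3.68 (2.22 to 6.62). Each is listed because it is a signal above the saline library in barcodes that the comparisons of cells left out. Their median mitochondrial share was 32.9% in cisplatin and 2.24% in saline, and its part in these ratios was not tested.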

How the results depend on the processing

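Over the settings run in which the gene reached 20 UMIs, the Socs3 ratio in endothelium was 10.7 to 16.4. That of Il33 was 1.94 to 4.18 and that of Nfkb2 1.31 to 6.43. The count of 4 genes at least 2-fold higher in endothelium was 1 without barcodes holding a podocyte or urothelial UMI, where Socs3 and Nfkb2 dropped under 20 UMIs, and 2, Socs3 and Il1r1 (2.16), with vessel types weighted alike. That weighting, chosen after seeing the data, turned the Csf1 ratio to 0.900 and that of Tnfrsf1a to 0.952. The mean over barcodes gave 1.01 and 1.09. Weighted ratios have no interval and draw on gates as small as 13 cisplatin arterial and 26 saline glomerular barcodes. The weighted Il1r1 ratio used 7 UMIs in those arterial barcodes. In capillary barcodes 1 gene was higher and 0 lower. The higher count was 2 at a minimum of 1000 UMIs, a mitochondrial limit of 10%, 1 subtype marker, median-of-ratios scaling, free RNA subtracted, the mean over barcodes and a fold of 1.5, and 3 with no filter on UMIs per gene. The lower count was 1 for the mean over barcodes, without barcodes above 20000 UMIs, with no filter and at a fold of 1.5. In glomerular barcodes the lower count of 1 was 0 at a mitochondrial limit of 10% and without barcodes above 20000 UMIs, where Nfkb1 dropped under 20 UMIs, and 2 for the mean over barcodes and at a fold of 1.5. In proximal tubule the count of 3 higher genes was 1 and that of 0 lower genes was 1 at a minimum of 1000 UMIs. With free RNA subtracted these counts were 0 and 3 of 5 genes that still had a ratio, and the Nfkbiz ratio turned to 0.512; Nfkb2 and Tnfrsf1a, the other 2 higher genes, had no ratio left. The saline share subtracted there rested on 23 leukocyte marker UMIs and has no interval. The cause was not tested beyond the construction of each setting. In endothelium 84 of 93 recomputed ratios lay inside the counting interval of the ratio reported, and 3 (Csf1, Nfkbia and Tnfrsf1a) lay on the other side of 1. In capillary barcodes 68 of 68 lay inside, but these intervals are wide: 6, all of Csf1 or Nfkbia, lay on the other side of 1, and Socs3 ran from 5.17 to 14.6. Glomerular barcodes were too few for a minimum of 1000 UMIs or for leaving podocyte or urothelial barcodes out, and arterial, collecting duct and leukocyte gates gave no ratio. No paired analysis was possible because each condition is 1 pooled library. Of the 10 genes, Tnfaip3 and Nfkbiz were too shallow for a ratio in endothelium.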
